A study of Mus musculus with 32 samples.

Results

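The comparison described here is the response to nicotinamide riboside (NR) in male against female control mice, that is, the change from vehicle to NR in males minus the same change in females. It rests on 16 of the 32 mice of the series, chosen by their labels: 4 male and 4 female control mice given vehicle and 4 male and 4 female control mice given NR. All were Col4a3tm1Dec mice on the C57BL/6J background at 25 weeks of age, and bulk RNA-sequencing was done on isolated kidney cortex, with 1 library per mouse. Controls were Col4a3+/- mice, so they carried 1 inactivated copy of the type IV collagen gene that is lost entirely in Alport (Col4a3-/-) mice, and a wild-type kidney is not part of the comparison. NR was given at 0.5% w/w in a purified diet from 10 weeks of age. Control mice are a check on what NR does in a kidney without the Alport disease. The labels do not link individual mice to litters or cages. The p-values measure the spread between mice within groups, pooled over all groups of a fit, and nothing beyond it. A p-value for 1 sex therefore also carries the spread of the other sex in that fit.

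NR is a form of vitamin B3 that cells phosphorylate to nicotinamide mononucleotide and then convert to NAD+, the electron carrier of fuel oxidation and the substrate of sirtuins and of poly(ADP-ribose) polymerases. The kidney cortex is mostly proximal tubule, which burns fatty acids and secretes conjugated drugs and metabolites. In the mouse this segment differs strongly between the sexes, because androgens and growth hormone set the level of many of its transporters, cytochromes P450 and conjugating enzymes. PPAR alpha, a nuclear receptor for fatty acids, drives Cyp4a hydroxylases and peroxisomal and mitochondrial oxidation, and NRF2 drives detoxifying enzymes.

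Library totals of the 16 mice were 16621944 to 27778797 counts, with a median of 22627648. All 4 Y-linked genes checked (*Ddx3y*, *Eif2s3y*, *Kdm5d* and *Uty*) were higher in every male than in every female. *Col4a3*, the targeted gene, was detected in all 4 groups, at 182 ± 22.8 CPM (counts scaled to a fixed library total, mean ± SD, n = 4) in male vehicle, 97.0 ± 44.0 in male NR, 151 ± 12.8 in female vehicle and 116 ± 8.75 in female NR mice. Proximal tubule markers were at a summed 14200 to 21700 CPM over the 16 mice, so the markers of the labelled tissue were present. The NR-treated males were less alike than the other groups, with a median correlation to their own group of 0.9741 to 0.9753 per mouse, against 0.9819 to 0.9865 in the other 12 mice. On the first principal component of log2 CPM, with 28.9% of the variance, the male vehicle mice lay at −44.9 to −36.5 and the 8 females at 21.2 to 29.2. NR-treated males 1 and 3 lay at 1.92 and 1.78, between the sexes, while NR-treated males 2 and 4 lay at −24 and −19.3, nearer to the vehicle males.

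The NR response differed between the sexes for 105 of 15379 genes tested, which is 0.683% (edgeR quasi-likelihood test, Benjamini-Hochberg adjusted p under 0.05). The difference is given below as the interaction log2 fold change (log2FC), the male response minus the female response. It was above 0 for 49 genes (0.319% of those tested) and below 0 for 56 (0.364%), and 50 of the 105 differed by at least 2-fold. Of the 49 genes with the higher male response, 44 rose with NR in males and 2 rose in females, while 3 fell in females. Of the 56 with the lower male response, 39 fell with NR in males and 15 rose with NR in females, 3 of them both.

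**Figure D1:**
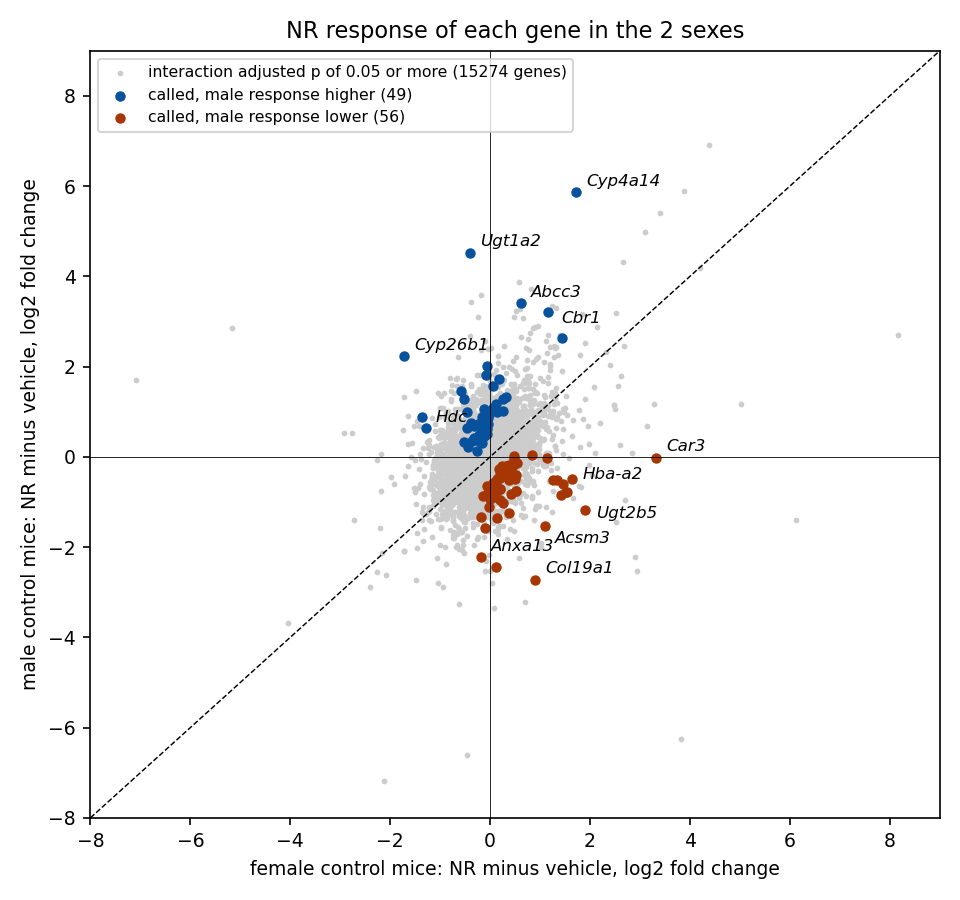
Each point is 1 of 15379 genes, with the NR minus vehicle log2 fold change in female control mice on the horizontal axis and in male control mice on the vertical axis; the dashed line marks equal responses. The 49 genes called with a higher male response (blue) lie above the line, led by *Ugt1a2* and *Cyp4a14*, and the 56 called with a lower male response (brown) lie below it, led by *Col19a1* and *Car3*.

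Within each sex, the same fit called 1080 genes as risen (7.02%) and 919 as fallen (5.98%) with NR in males. In females it called 141 as risen (0.917%) and 41 as fallen (0.267%). Of the genes called in either sex, 83 were called in both, which is 4.15% of the male and 45.6% of the female calls, and 80 of the 83 moved the same way. Across all genes tested, the male and female responses had a Pearson r of 0.337, given as a description since genes are not replicates. The unequal numbers of calls depend on the fit. When the 8 control mice of each sex were fitted alone, 666 genes were called in males and 924 in females; the cause of that change was not tested. A call in 1 sex and not in the other is therefore no measure of a sex difference, and only the interaction is used for that.

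The count of 105 also depended on single mice. It was 677 without NR-treated male 4 and 336 without NR-treated male 2, and between 22 and 98 without any one of the other 14 mice. The lowest value, 22, was reached without NR-treated female 3. In 1 fit of all 32 mice of the series the count was 7, and with the replicate number as a block it was 61. The 7 were *Abcc3*, *Cyp4a14*, *Fgfbp1*, *Pgm5*, *Ugt1a1*, *Ugt1a2* and *Ugt2b5*. All other calls of the 105 were lost in that fit of 32 mice. Each of the 105 genes kept the sign of its interaction whichever mouse was left out, and 21 stayed past the threshold every time.

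**Figure D2:**
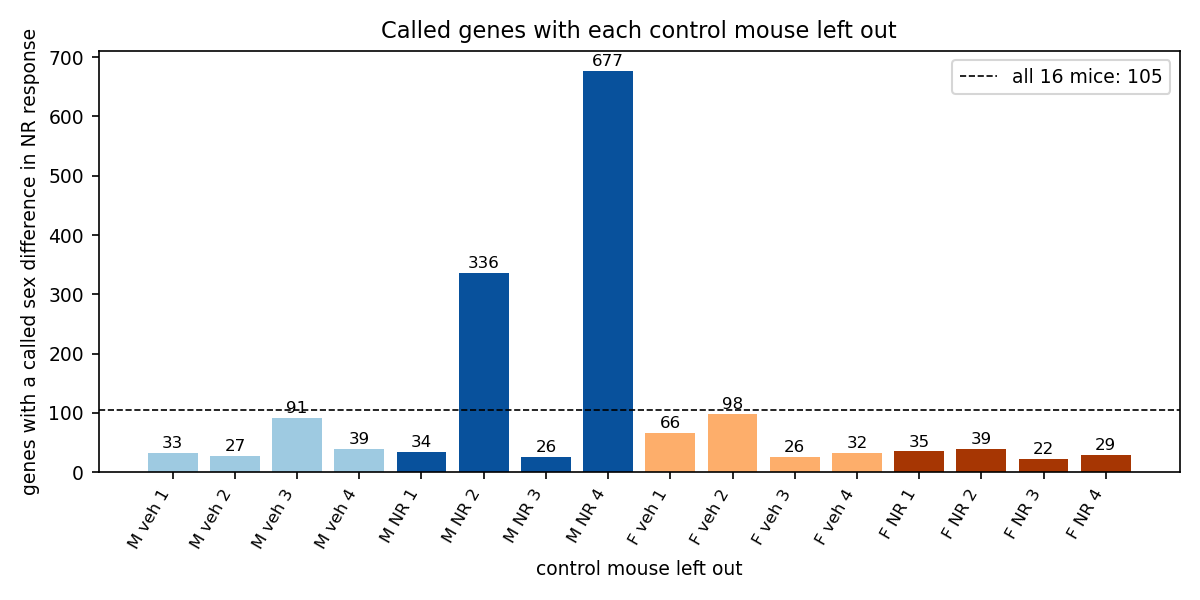
Bars give the number of genes with a called sex difference in NR response (vertical axis) when each control mouse (horizontal axis, M male, F female, veh vehicle) was left out, and the dashed line marks the 105 genes called with all 16 mice. The bars for NR-treated males 4 and 2 reach 677 and 336, and the other 14 lie between 22 and 98.

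The largest positive interaction was that of *Ugt1a2* (chr1:88200601-88218997, plus strand, GRCm38), which encodes a glucuronosyltransferase that conjugates lipophilic compounds for excretion. It was at 20.5, 17, 35.4 and 16.1 CPM in male vehicle mice and at 733, 142, 757 and 418 in male NR mice. In females it was at 2380, 2060, 2060 and 2310 CPM with vehicle and at 1650, 2160, 1300 and 1600 with NR. All NR-treated males lay above all vehicle males and still below every female, and the female groups overlapped. The male response was a log2FC of 4.52 ± 0.42 (SE), the female response −0.40 ± 0.35 (adjusted p = 0.602), and the interaction 4.93 ± 0.53 (edgeR adjusted p = 0.00072). Its neighbour *Ugt1a1* (chr1:88211959-88218997, plus strand), the bilirubin-conjugating enzyme, shares the last exons of the locus. It was at 15.4, 16, 15.4 and 8.66 CPM in male vehicle and 52.6, 32.1, 59.7 and 51.6 in male NR mice, against 62.8 to 85.3 in female vehicle and 62.8 to 74.8 in female NR mice, an interaction of 1.91 ± 0.25 (edgeR adjusted p = 0.00417). NR-treated males had again left the vehicle range without reaching the female one. Of all 50-base stretches in the transcripts of *Ugt1a2*, 63.7% also occur in another gene, and of *Ugt1a1* 58.2%, so reads from these exons cannot be assigned to 1 of the genes and the split of counts between them is uncertain.

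A pump and a carrier of organic anions also had the higher response in males. *Abcc3* (chr11:94343295-94392997, minus strand), an efflux pump for glucuronides and bile acids, was at 1.65, 0.983, 1.97 and 2.24 CPM in male vehicle and 25.3, 9.65, 18.1 and 19.1 in male NR mice, and at 31.6 to 77.5 and 54.3 to 99.3 in the female groups. The males moved apart and the females overlapped, with an interaction of 2.79 ± 0.44 (edgeR adjusted p = 0.0127). *Slc22a29* (chr19:8160165-8218900, minus strand), of the organic anion transporter family, was at 3.83, 3.55, 4.04 and 4 CPM in male vehicle and 6.98, 7.13, 11.9 and 11.1 in male NR mice, and at 50.9 to 87.6 and 31.5 to 56.8 in the females, an interaction of 1.80 ± 0.30 (edgeR adjusted p = 0.0167). It shares 28.7% of its 50-base stretches with other genes, most of them *Slc22a27*. These 4 genes kept their calls whichever mouse was left out. In the fit of all 32 mice *Slc22a29* lost its call.

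*Cyp4a14* (chr4:115486200-115496142, minus strand), a fatty acid omega-hydroxylase and PPAR alpha target, had the largest male response of the 24 named genes. It was at 25.1, 16.6, 119 and 24.4 CPM in male vehicle mice and at 3400, 1900, 3170 and 2350 in male NR mice. Females started higher, at 542, 858, 688 and 633 CPM, and were at 2160, 1300, 2940 and 2610 with NR. The NR groups of the 2 sexes overlapped, whereas the vehicle groups did not. The male response was 5.87 ± 0.55 and the female response 1.72 ± 0.46 (adjusted p = 0.0728), so that the interaction of 4.15 ± 0.66 (edgeR adjusted p = 0.0127) is a difference between estimates that were both above 0. Other lipid enzymes followed with smaller differences. *Acot3* (chr12:84052144-84060402, plus strand), a peroxisomal acyl-CoA thioesterase, was at 26.3, 22.9, 45.9 and 25.5 CPM in male vehicle and 100, 65.5, 127 and 68.2 in male NR mice, against 89.3 to 99.6 and 92.8 to 102 in females (interaction 1.52 ± 0.29, edgeR adjusted p = 0.0273). NR-treated males 1 and 3 lay within or above the female range, and males 2 and 4 stayed below every female. *Hacl1*, which cleaves 2-hydroxy fatty acids in peroxisomes, was called as well (1.02, edgeR adjusted p = 0.0473). The *Acot3* call was lost without any 1 of 11 mice, and the *Hacl1* call without any 1 of 13.

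*Cbr1* (chr16:93605853-93610505, plus strand), a carbonyl reductase under NRF2 control, rose in both sexes. It was at 51.3, 38.9, 69.8 and 56.9 CPM in male vehicle mice and 700, 361, 602 and 339 in male NR mice. Female vehicle mice had 292, 288, 291 and 255 CPM and female NR mice 645, 361, 789 and 746. Both sexes had NR groups clear of their vehicle groups, and the NR groups overlapped each other. The male response of 3.20 ± 0.27 exceeded the female response of 1.17 ± 0.25 by 2.04 ± 0.35 (edgeR adjusted p = 0.0174), and this call held whichever mouse was left out.

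*Cyp26b1* (chr6:84571414-84593908, minus strand), which inactivates retinoic acid, had response estimates of opposite sign. Male vehicle mice had 12.4, 5.68, 20.8 and 6.04 CPM and male NR mice 75.4, 22.1, 76.1 and 36.2. Female vehicle mice had 27.2, 19.3, 52.2 and 59.8 CPM and female NR mice 11.1, 7.12, 12.4 and 17.3. The groups did not overlap within either sex, although in 13% of all genes tested the 4 NR and 4 vehicle males do not overlap and in 14.4% the females do not. The male rise was 2.23 ± 0.47, the female value −1.73 ± 0.47 (adjusted p = 0.0762), and the interaction 3.96 ± 0.67 (edgeR adjusted p = 0.0167). *Hdc* (chr2:126593667-126619299, minus strand), the histamine-forming decarboxylase, fell in females from 13.9–15.6 to 4.36–7.82 CPM, without overlap. Its male groups overlapped, at 4.81 to 7.59 CPM with vehicle and 4.68 to 16.5 with NR (interaction 1.93 ± 0.39, edgeR adjusted p = 0.0374).

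The other named genes with a higher male response were expressed at low levels. *Ifitm1* (chr7:140967221-140969825, plus strand), an interferon-inducible membrane protein, was at 1.06 to 1.33 CPM in male vehicle and 2.56 to 7.96 in male NR mice (interaction 2.07 ± 0.44, edgeR adjusted p = 0.0417). *Pgm5* (chr19:24683016-24861855, minus strand), a phosphoglucomutase-like protein of cell adhesions, was at 1.41 to 2.42 and 3.36 to 10.2 CPM (2.05 ± 0.43, edgeR adjusted p = 0.0416). *Fgfbp1* (chr5:43978858-43981779, minus strand), which releases fibroblast growth factors from the matrix, was at 1.28 to 2.05 and 3.74 to 6 CPM (1.56 ± 0.32, edgeR adjusted p = 0.0399). In each, the NR-treated males stood above the vehicle males. The female groups overlapped for *Ifitm1* and *Fgfbp1*, whereas for *Pgm5* they did not, at 5.07 to 7.76 CPM with vehicle and 3.78 to 5 with NR (female log2FC −0.59, edgeR adjusted p = 0.319). Leaving out single mice ended the *Ifitm1* call in 12 of 16 fits, the *Pgm5* and *Hdc* calls in 11 and the *Fgfbp1* call in 12.

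**Figure D3:**
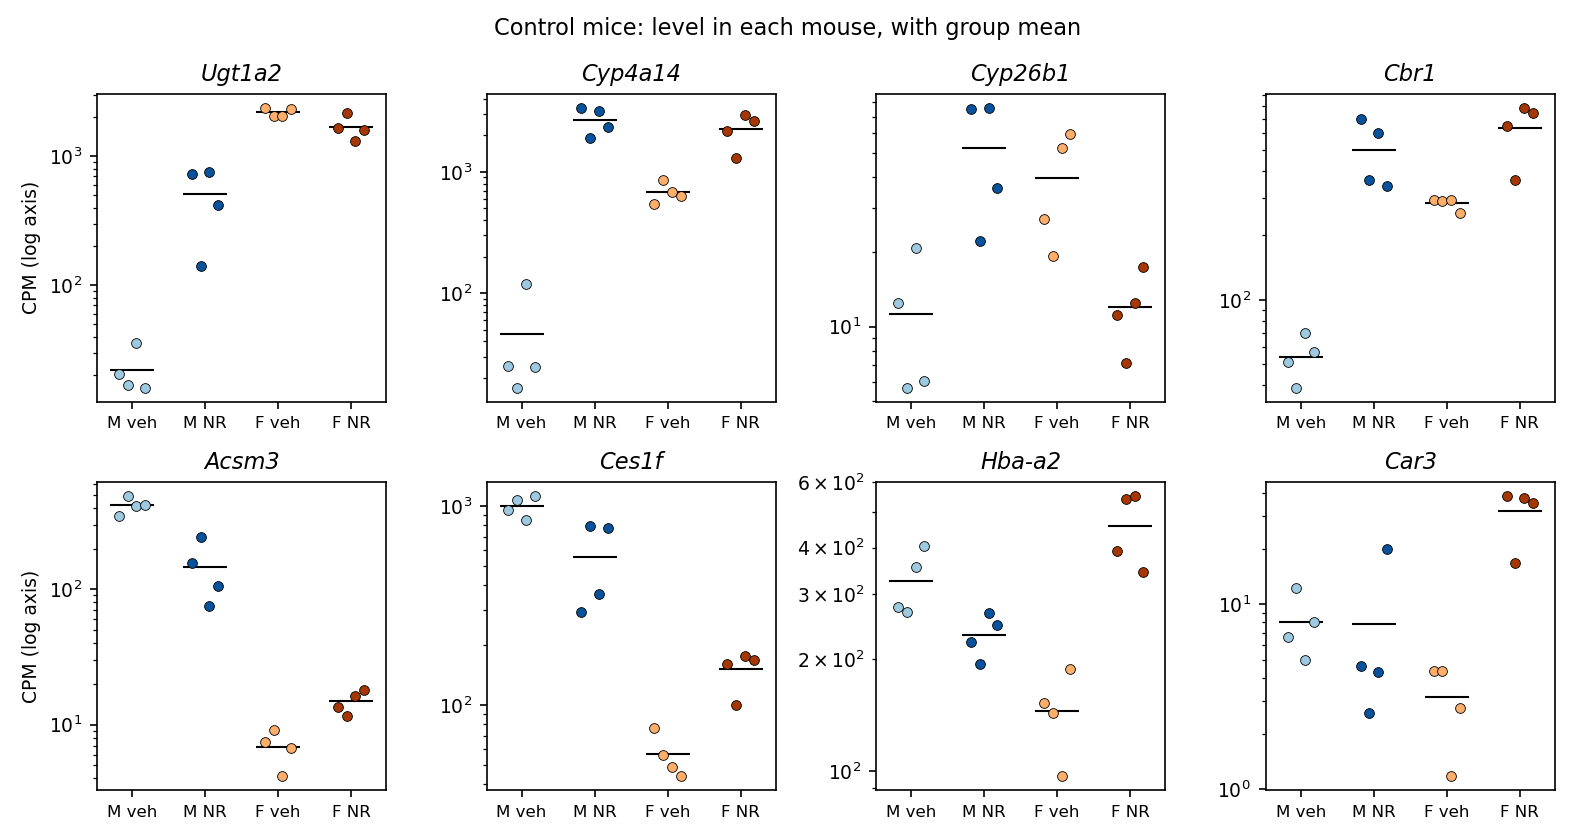
Points are single control mice (4 per group; M male, F female, veh vehicle) for 8 named genes, with CPM on a log axis and a line at the group mean. *Ugt1a2*, *Cyp4a14* and *Cbr1* show the vehicle males below all other mice, *Acsm3* and *Ces1f* show a sex gap that is narrower in the NR groups, and *Hba-a2* and *Car3* have their highest group mean in the NR-treated females.

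Among the genes with the lower male response, several are proximal tubule enzymes that were far higher in males with vehicle. *Acsm3* (chr7:119760923-119787513, plus strand), a medium-chain acyl-CoA synthetase, was at 350, 489, 416 and 417 CPM in male vehicle and 157, 242, 75.2 and 106 in male NR mice. In females it was at 7.5, 9.09, 4.16 and 6.77 CPM with vehicle and 13.5, 11.6, 16.4 and 17.9 with NR. Levels fell in males, by 1.54 on the log2 scale, and every NR-treated female was above every vehicle female, with a female response of 1.10 ± 0.30 (adjusted p = 0.0804) and an interaction of −2.63 ± 0.41 (edgeR adjusted p = 0.0105). *Ces1f* (chr8:93256236-93279747, minus strand), a carboxylesterase, changed in opposite directions. It was at 950, 1070, 853 and 1120 CPM in male vehicle and 294, 788, 361 and 777 in male NR mice, and at 76.6, 56.2, 48.7 and 43.8 in female vehicle and 161, 99.5, 175 and 167 in female NR mice. The male values of NR-treated mice 2 and 4 were close to the vehicle range and those of mice 1 and 3 far below it. Male and female responses of −0.86 ± 0.27 and 1.41 ± 0.28 both passed the test, and the interaction was −2.27 ± 0.39 (edgeR adjusted p = 0.0174). *Ugt2b5* (chr5:87124960-87140318, minus strand), another glucuronosyltransferase, was at 6.07 to 9.46 CPM in male vehicle and 1.32 to 4.79 in male NR mice, and at 1.03 to 2.29 in female vehicle and 2.53 to 9.31 in female NR mice. It fell in males and rose in females (interaction −3.08 ± 0.53, edgeR adjusted p = 0.0179), with 41.7% of its 50-base stretches shared with other genes. *Cyp4a12a* (chr4:115299046-115332815, plus strand), an androgen-dependent omega-hydroxylase, had an interaction of −2.31 ± 0.51 (edgeR adjusted p = 0.0473). Its values were 69.6, 95.7, 49.7 and 63.8 CPM in male vehicle and 31.1, 79.5, 27.3 and 26.3 in male NR mice, against 1.87 to 4.54 and 5.57 to 8.99 in females. NR-treated male 2 lay within the vehicle range, 48.9% of the 50-base stretches are shared with *Cyp4a12b*, and the call was lost without any 1 of 12 mice.

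The other 4 named genes of this direction, the globins aside, have varied roles. *Col19a1* (chr1:24261890-24587472, minus strand), a minor collagen, was at 5.21, 5.17, 1.43 and 3.76 CPM in male vehicle and 0.634, 0.779, 0.312 and 0.639 in male NR mice, against 0.225 to 0.366 in female vehicle and 0.396 to 0.766 in female NR mice (interaction −3.61 ± 0.59, edgeR adjusted p = 0.013). The groups did not overlap in either sex, and the female log2FC of 0.89 (adjusted p = 0.324) is part of the interaction. The low values rest on few reads, 6 to 16 per mouse in females. *Cntnap5a* (chr1:115684756-116587323, plus strand), a neurexin-family adhesion protein, was at 1.63 to 4.79 and 0.365 to 0.779 CPM in the male groups (−2.57 ± 0.54, edgeR adjusted p = 0.0416). Both fell in males to the female range. *Anxa13* (chr15:58341471-58389244, minus strand), a membrane-binding annexin, fell in males from 14.1–27.6 to 2.45–6.48 CPM (−2.03 ± 0.40, edgeR adjusted p = 0.0318). *Car3* (chr3:14863512-14872523, plus strand), a carbonic anhydrase, rose in females from 4.37, 4.39, 1.18 and 2.74 to 38.5, 16.7, 37.4 and 35.5 CPM, and overlapped in males, at 5.03 to 12.3 with vehicle and 2.58 to 19.9 with NR (−3.34 ± 0.73, edgeR adjusted p = 0.0473). Single mice ended the calls of *Car3* and *Cntnap5a* in 13 of 16 fits and of *Anxa13* in 9, whereas *Col19a1* kept its call in all 16.

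All 5 genes of the red blood cell list were called with a lower male response: the alpha globins *Hba-a1* and *Hba-a2*, the beta globins *Hbb-bs* and *Hbb-bt*, and *Alas2*, the first enzyme of heme synthesis in red cell precursors. *Hba-a2* (chr11:32296489-32297298, plus strand) was at 277, 268, 355 and 403 CPM in male vehicle and 222, 194, 267 and 247 in male NR mice. In females it was at 152, 143, 96.7 and 188 CPM with vehicle and 392, 541, 551 and 344 with NR. The NR-treated females stood above the vehicle females without overlap, and the NR-treated males below the vehicle males, by as little as 267 against 268 CPM. The female response was 1.65 ± 0.20 (adjusted p = 0.001), the male response −0.49 ± 0.19 (adjusted p = 0.101) and the interaction −2.14 ± 0.28 (edgeR adjusted p = 0.00412). *Hba-a1* (chr11:32283511-32284465, plus strand), *Hbb-bs* (chr7:103826534-103828096, minus strand) and *Hbb-bt* (chr7:103812524-103813996, minus strand) had interactions of −1.86 ± 0.28, −2.05 ± 0.30 and −2.30 ± 0.32 (edgeR adjusted p = 0.00865, 0.00865 and 0.00532). *Alas2* was at 13.1, 16, 14.2 and 18.7 CPM in male vehicle, 8.02, 7.49, 10.8 and 16.9 in male NR, 7.45, 7.62, 4.9 and 9.6 in female vehicle and 18.5, 20.1, 16 and 16.7 in female NR mice (−1.78, edgeR adjusted p = 0.0192). All 5 rose with NR in females, and *Hbb-bt* alone of the 5 passed the test in males, where it fell by 0.77 on the log2 scale. Summed over the list, the level was 988 to 1500 CPM in male vehicle, 640 to 1020 in male NR, 322 to 664 in female vehicle and 1190 to 1680 in female NR mice. In cortex RNA, a change in how many red cells or reticulocytes were left in the tissue and a change in RNA per cell cannot be told apart. The 5 calls held whichever mouse was left out, and none of them held in the fit of all 32 mice, where the list's median interaction was −2.06.

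The start regions of these genes are shown because 5 genes on 3 chromosomes moved together. Each is the 250 bases before the RefSeq start (GRCm38.p6), on the gene's own strand, with capitals for matches to the GATA motif of red cell genes (spelled AGATAA, also spelled AGATAG, also spelled TGATAA and also spelled TGATAG) or the CACCC motif (CCACCC), on either strand; adjoining matches run together.
Hba-a1 (chr11:32283422-32283671, plus strand): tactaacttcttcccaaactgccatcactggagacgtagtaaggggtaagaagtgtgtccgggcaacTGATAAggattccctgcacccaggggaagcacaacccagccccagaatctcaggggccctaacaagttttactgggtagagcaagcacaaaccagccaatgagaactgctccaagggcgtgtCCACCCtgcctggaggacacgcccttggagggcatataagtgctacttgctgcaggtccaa
Hbb-bs (chr7:103827929-103828178, minus strand): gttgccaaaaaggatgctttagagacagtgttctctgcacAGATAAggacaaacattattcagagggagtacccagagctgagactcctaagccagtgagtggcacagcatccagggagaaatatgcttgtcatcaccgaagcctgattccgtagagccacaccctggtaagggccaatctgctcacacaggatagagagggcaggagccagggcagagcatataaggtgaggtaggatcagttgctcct
Hbb-bt (chr7:103813924-103814173, minus strand): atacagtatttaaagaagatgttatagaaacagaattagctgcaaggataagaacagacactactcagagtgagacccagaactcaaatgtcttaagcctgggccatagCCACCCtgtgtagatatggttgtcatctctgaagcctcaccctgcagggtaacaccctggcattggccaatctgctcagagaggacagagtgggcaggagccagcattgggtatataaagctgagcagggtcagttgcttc
Alas2 (chrX:150547167-150547416, plus strand): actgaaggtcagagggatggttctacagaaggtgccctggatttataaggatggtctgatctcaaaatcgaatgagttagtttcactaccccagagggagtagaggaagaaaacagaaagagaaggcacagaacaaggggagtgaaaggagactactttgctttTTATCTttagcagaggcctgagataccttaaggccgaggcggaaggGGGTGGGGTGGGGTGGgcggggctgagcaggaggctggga
*Hba-a1*, *Hbb-bs* and *Alas2* each hold 1 GATA match, and *Hba-a1*, *Hbb-bt* and *Alas2* hold 1, 1 and 3 matches to CCACCC. Only that spelling was searched, so CACCC after another base, as in *Hba-a1*, *Hbb-bs* and *Hbb-bt*, stays in lower case and uncounted. Matches to the searched spellings are common: 26.5% of 32851 RefSeq promoters hold the GATA motif and 28.1% hold CCACCC. The shares were 27.4% and 29.5% of the 95 promoters of the 79 called genes with a RefSeq promoter. The same region of *Hba-a2* is identical to that of *Hba-a1* over 247 aligned bases. The transcripts are near copies as well, with 89.3% of the 50-base stretches of *Hba-a2* found in *Hba-a1* and 58.3% of those of *Hbb-bt* in *Hbb-bs*, so the counts of each pair may have been split between its members.

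Sex-biased genes were taken from mice that play no part in the control contrast, the vehicle-treated Alport mice (adjusted p under 0.05 and at least 2-fold between males and females). Of 30 female-biased genes, 26 were tested in controls, and 10 of them were called with a higher male response, none with a lower one. Their median interaction was 1.02, beside −0.01 over all genes tested, and 25 of the 26 were above 0, beside 7558 of all 15379. Over all genes tested, 0.319% were called with a higher and 0.364% with a lower male response. In males 16 of the 26 rose with NR, beside 7.02% of all genes, and in females none passed the test in either direction. Apart from those described above, the 10 were *Mfsd7c*, a heme and choline transporter relative, *Oat*, the ornithine aminotransferase, and *Cyp2d26*, a cytochrome P450. Of 44 male-biased genes, 40 were tested, and 6 were called with a lower male response, none with a higher one. Their median interaction was −0.87, and 38 of the 40 were below 0, beside 7821 of all 15379. In males 24 of the 40 fell with NR, beside 5.98% of all genes, while in females 1 rose and none fell. *Cndp2*, a dipeptidase, was the male-biased gene of smallest p, at 1130, 1210, 798 and 1270 CPM in male vehicle and 474, 688, 435 and 581 in male NR mice. Female mice had 262 to 288 CPM with vehicle and 306 to 347 with NR (interaction −1.29, edgeR adjusted p = 0.00998). The other called genes of this list, beside *Acsm3* and *Ces1f*, were *Degs2*, a sphingolipid hydroxylase, *Galns*, a lysosomal sulfatase, and *Ldhd*, the D-lactate dehydrogenase. Leaving out single mice gave 6 to 14 female-biased and 3 to 17 male-biased calls, and the fit of all 32 mice gave 5 and 0. The calls of *Oat*, *Cyp2d26*, *Degs2*, *Galns* and *Ldhd* were each lost in some fit with a mouse left out.

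Over all 105 called genes, the vehicle and NR groups can be set side by side. The 49 genes with the higher male response had a median male minus female log2FC of −0.95 in vehicle-treated and 0.02 in NR-treated control mice. The 56 with the lower male response had medians of 1.16 and 0.20. The same mice enter the interaction and both sex differences, so these medians describe the called genes and are not separate evidence.

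**Figure D4:**
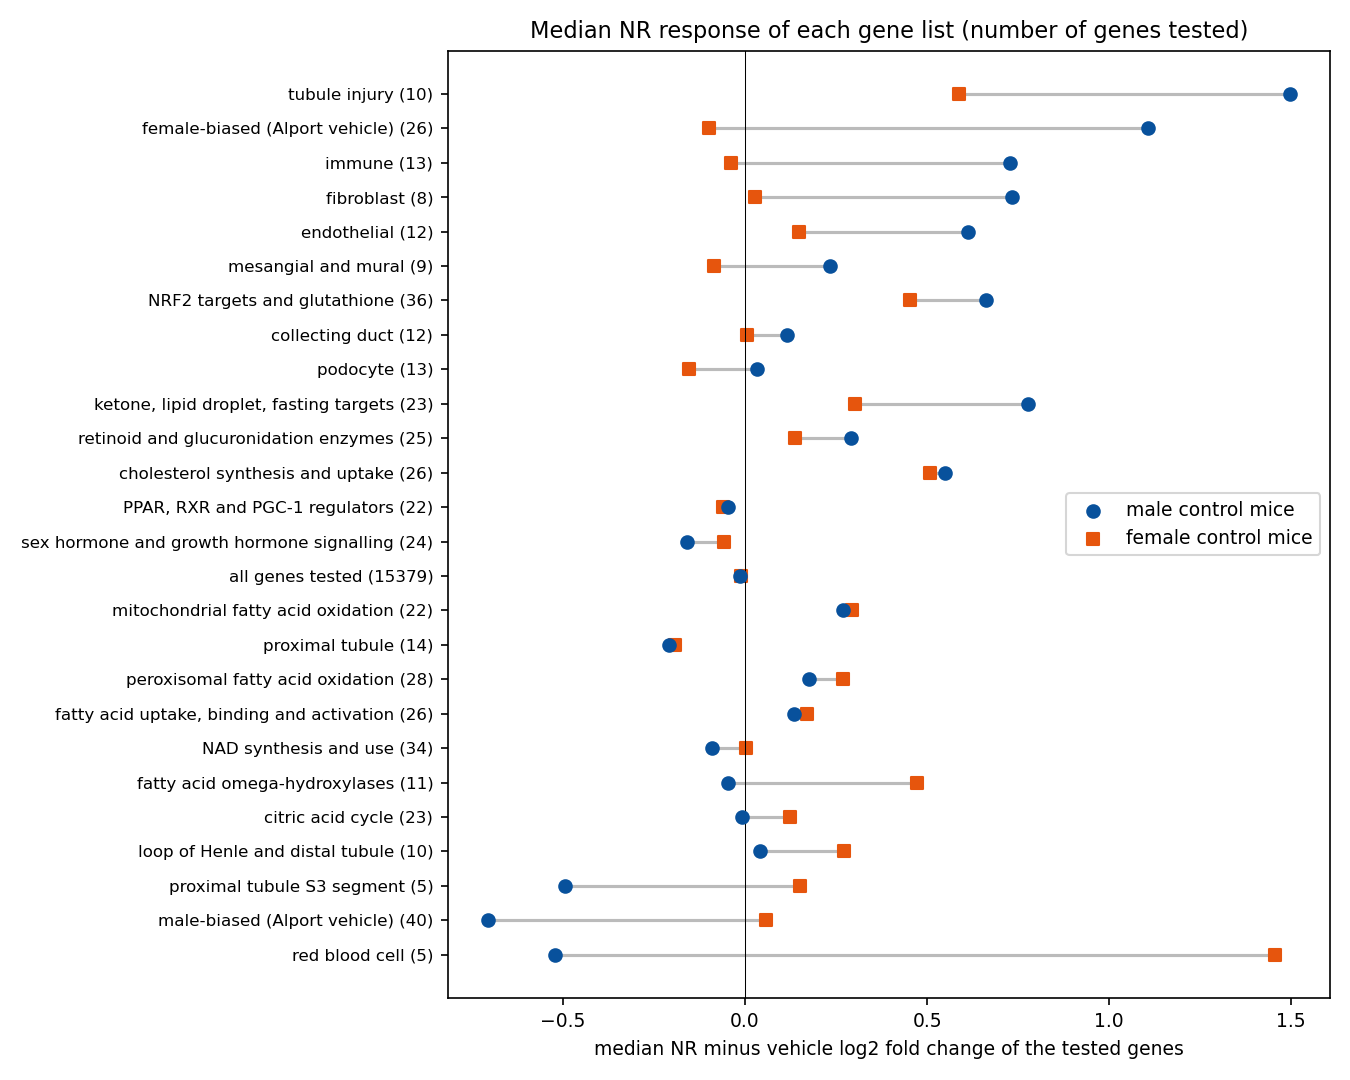
For each gene list (number of tested genes in parentheses), the median NR minus vehicle log2 fold change is shown for male (blue circles) and female (orange squares) control mice on 1 linear axis. The red blood cell list has its medians at −0.52 in males and 1.46 in females, the female-biased list at 1.11 and −0.10, and the cholesterol list at 0.55 and 0.51, close together.

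Of all genes tested, 0.683% were called in the interaction and 2458 of the 15379 had an unadjusted p under 0.05, and the lists are set beside these shares. Of 36 tested NRF2 target and glutathione genes, 23 rose in males and 12 in females, with median responses of 0.66 and 0.45. *Abcc3* and *Cbr1* were called with a higher male response, and *Prdx1*, a peroxiredoxin that removes peroxides, with a lower one, which is 8.33% of the list. *Prdx1* was at 641, 631, 699 and 739 CPM in male vehicle and 644, 677, 597 and 724 in male NR mice, and rose in females from 448–495 to 613–731 (interaction −0.51, edgeR adjusted p = 0.0482). Its call was lost without any 1 of 14 mice. *Nqo1*, the quinone reductase that is a standard NRF2 readout, had an interaction of 0.10 (edgeR adjusted p = 0.94). Of 26 cholesterol synthesis and uptake genes, 15 rose in males and 11 in females. None was called in the interaction by edgeR, 10 had an unadjusted p under 0.05, DESeq2 called 1 and limma-voom 2, and the list's median was 0.08. The 3 of smallest interaction p were *Hmgcs1* (−0.63), *Fdft1* (0.45) and *Pmvk* (0.59), with edgeR adjusted p of 0.111, 0.117 and 0.12.

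In mitochondrial fatty acid oxidation, 10 of 22 genes rose in males and 9 in females, with median responses of 0.27 and 0.29. *Acads*, the short-chain acyl-CoA dehydrogenase, was the 1 called gene. It was at 244 to 277 CPM in male vehicle and 204 to 269 in male NR mice, and rose in females from 139–159 to 200–241 (interaction −0.68, edgeR adjusted p = 0.0219), a call lost without male vehicle mouse 2, female vehicle mouse 3 or 4, or female NR mouse 3. Of 28 peroxisomal genes, 2 were called with a higher male response (*Acot3* and *Hacl1*) and 3 with a lower one, 17.9% of the list in all. The 3 were *Phyh*, which alpha-oxidizes phytanic acid (−0.63), *Amacr*, a racemase of branched acyl-CoAs (−0.91), and *Pecr*, an enoyl-CoA reductase (−0.65), with edgeR adjusted p of 0.0313, 0.0473 and 0.0473. The *Phyh* call was lost without any 1 of 10 mice, and those of *Amacr* and *Pecr* were lost without at least 1. In males 11 of the 28 rose and 4 fell, and in females 5 rose. *Cyp4a14* and *Cyp4a12a* were the called members of 11 omega-hydroxylases, in opposite directions. *Acsm3* was the called member of 26 genes of fatty acid uptake, binding and activation. Next to it in that list stood *Cd36*, a fatty acid transporter (−1.65, edgeR adjusted p = 0.071), and *Acsl1*, a long-chain acyl-CoA synthetase (0.97, adjusted p = 0.0755). Among 23 ketone, lipid droplet and fasting targets edgeR called none, with 11 at an unadjusted p under 0.05, and DESeq2 and limma-voom called 3 each. *Acat1*, *Pltp* and *Mgll* had the smallest edgeR adjusted p, at 0.0658, 0.0752 and 0.0894. Among 22 PPAR, RXR and PGC-1 regulators edgeR called none, with 3 at an unadjusted p under 0.05, and the other tools 1 each. The smallest edgeR p in that list were those of *Lpin1*, *Nr1h4* and *Esrra*, with adjusted p of 0.111, 0.123 and 0.286.

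Of 25 retinoid and glucuronidation enzymes, 4 were called with a higher male response (*Ugt1a2*, *Ugt1a1*, *Cyp26b1* and *Aldh1a1*) and 2 with a lower one (*Ugt2b5* and *Adh1*). *Aldh1a1*, a retinaldehyde dehydrogenase, rose in both sexes, from 19.9–28.4 to 131–162 CPM in males and from 23.7–40 to 54.6–100 in females (interaction 1.20, edgeR adjusted p = 0.0455). *Adh1*, an alcohol and retinol dehydrogenase, fell in males from 542–736 to 268–461 CPM and was at 141 to 203 and 205 to 290 in females (−1.28, edgeR adjusted p = 0.0273). The *Aldh1a1* and *Adh1* calls were each lost in some fit with a mouse left out. *Stra6*, the retinol-binding protein receptor, had an interaction of 2.94 with an adjusted p of 0.0639.

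In the NAD list, which holds the kinases that phosphorylate NR, 1 of 34 genes was called. *Kynu*, the kynureninase of NAD synthesis from tryptophan, was at 29.2, 25.9, 41.5 and 34.9 CPM in male vehicle and 69.8, 39.3, 80.4 and 86.4 in male NR mice, and at 72.6 to 86.6 and 63.1 to 81.8 in females (interaction 1.20, edgeR adjusted p = 0.0473). NR-treated male 2 was just inside the vehicle range, and the call was lost without any 1 of 13 mice. *Nmrk2*, an NR kinase, had −1.99 (adjusted p = 0.0921), and *Haao*, also of the tryptophan route, −0.54 (adjusted p = 0.152). Of 23 citric acid cycle genes edgeR called none, with 5 at an unadjusted p under 0.05, DESeq2 none and limma-voom 1. The smallest edgeR p in that list were those of *Idh2*, *Sucla2* and *Suclg1*, with adjusted p of 0.181, 0.196 and 0.199.

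Of 24 genes of sex hormone and growth hormone signalling edgeR called none in the interaction, with 6 at an unadjusted p under 0.05, and DESeq2 and limma-voom 1 each. The smallest edgeR adjusted p were 0.0971, 0.168 and 0.182, in *Srd5a1* and *Srd5a2*, the 5 alpha-reductases that form dihydrotestosterone, and *Esr1*, the estrogen receptor alpha. The summed level of the list was 14700 to 17400 CPM in male vehicle and 4020 to 13500 in male NR mice, and 2670 to 4310 and 2930 to 3280 in the female groups. Most of the male vehicle level was *Kap*, the kidney androgen-regulated protein, looked at after the sums were seen. *Kap* was at 12470 ± 1058 CPM (SD, n = 4) in male vehicle, 4769 ± 3873 in male NR, 907 ± 584 in female vehicle and 356 ± 195 in female NR mice. Its log2FC was −1.40 in males and −1.36 in females (edgeR adjusted p = 0.116 and 0.246), with an interaction of −0.04 (adjusted p = 0.989).

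Among markers of other cell types, the counts in males are read beside the 7.02% of all genes that rose and the 5.98% that fell. Of 12 endothelial genes, 11 rose in males and none passed in females, with a summed level of 550 to 609 CPM in male vehicle, 811 to 1080 in male NR, 622 to 837 in female vehicle and 792 to 863 in female NR mice. None was called in the interaction by edgeR, 9 had an unadjusted p under 0.05, and DESeq2 and limma-voom called 1 each. All 12 estimates were above 0, beside 7558 of all 15379 genes, with *Pecam1* at 0.59 (edgeR adjusted p = 0.0509), *Eng* at 0.52 (0.152) and *Cdh5* at 0.47 (0.154). In the same contrast of Alport mice, 11 of the 12 endothelial estimates were below 0 (median −0.20), as were 43.2% of all genes in both fits. Of 10 tubule injury genes, 8 rose in males and none passed in females, at a summed 830 to 988, 1020 to 2470, 1920 to 2510 and 1760 to 2800 CPM in the 4 groups in that order. The median interaction of this list was 1.19. No member was called by edgeR, 5 had an unadjusted p under 0.05, DESeq2 called 2 and limma-voom 1, and up to 5 were called by edgeR with a mouse left out. *Spp1*, *Vcam1* and *Fgb* had 1.13, 1.27 and 2.68, with edgeR adjusted p of 0.0921, 0.114 and 0.138. Of 8 fibroblast genes, 4 rose in males, at a summed 67.1 to 90.1, 97 to 165, 87.8 to 169 and 115 to 157 CPM. In the interaction edgeR called none, with 4 at an unadjusted p under 0.05, DESeq2 called 4 and limma-voom 1. The smallest edgeR p were those of *Fbln1*, *Dcn* and *Pdgfra* (1.44, 1.48 and 0.92, adjusted p of 0.0625, 0.0658 and 0.111). Of 13 immune genes, 2 rose in males, at a summed 266 to 316, 338 to 672, 285 to 602 and 354 to 470 CPM. In the interaction edgeR called none, with 3 at an unadjusted p under 0.05, DESeq2 called 1 and limma-voom none. The smallest edgeR p were those of *C1qa*, *C1qb* and *H2-Aa* (adjusted p of 0.116, 0.167 and 0.294). Of 12 collecting duct genes 2 rose and 1 fell in males, of 13 podocyte genes 2 fell, and of 9 mesangial and mural genes 2 rose. The part of these cell types in the named results was not tested.

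Within the tubule, 1 of 10 loop and distal tubule markers was called. *Pvalb*, a calcium buffer of the distal convoluted tubule, was at 24, 18, 21.2 and 25.9 CPM in male vehicle and 10.2, 11.9, 10.2 and 18.1 in male NR mice, and at 20.4 to 28 and 28.8 to 35.9 in females (interaction −1.24, edgeR adjusted p = 0.0289), a call lost without any 1 of 8 mice. In the remaining marker lists edgeR called no gene. The parentheses give the 3 genes of smallest edgeR p in each list, with edgeR adjusted p. They need not be the genes called by another tool. Of 14 proximal tubule markers none had an unadjusted p under 0.05 and no other tool called any (*Slc34a1*, *Slc22a6* and *Gatm*, edgeR adjusted p of 0.357, 0.395 and 0.538). Of 5 genes of its S3 segment 3 had an unadjusted p under 0.05, DESeq2 called 1 and limma-voom 2 (*Slc5a8*, *Atp11a* and *Slc7a13*, 0.0921, 0.158 and 0.225). Of 12 collecting duct genes 4 had an unadjusted p under 0.05, DESeq2 called none and limma-voom 1 (*Slc26a4*, *Slc4a1* and *Aqp2*, 0.181, 0.235 and 0.269). Of 13 podocyte genes 4 had an unadjusted p under 0.05 and no other tool called any (*Col4a4*, *Wt1* and *Cdkn1c*, 0.198, 0.199 and 0.245). Of 9 mesangial and mural genes 5 had an unadjusted p under 0.05, DESeq2 called 2 and limma-voom 3 (*Pdgfrb*, *Tagln* and *Acta2*, 0.071, 0.0921 and 0.122). The summed S3 level was 2800 to 3440 CPM in male vehicle and 901 to 2240 in male NR mice, with 3 of the 5 genes fallen in males, and was 594 to 761 and 599 to 710 in females. *Atp11a* and *Slc7a13*, with male vehicle means of 1433 and 1031 CPM, weigh most in that sum. Of the 5 interactions, 3 were below 0 and 2 above it, so the list did not move as 1. For neighbouring fat and adrenal gland few markers passed the filter on low counts. Of 6 adipocyte genes 2 were tested, *Plin1* (interaction −1.12) and *Pck1* (0.07), which the tubule also expresses, with edgeR adjusted p of 0.657 and 0.963. Neither of these nor the adrenal gene below had an unadjusted p under 0.05 or a call by another tool. Of 5 adrenal genes 1 was tested, *Star* (0.25, adjusted p = 0.701), and the list summed to 2.94 to 6.55 CPM over the 16 mice.

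The same contrast was fitted in the 16 Alport mice, which share no mouse with the controls. No gene of 16189 was called (0% at an adjusted p under 0.05 by edgeR, smallest adjusted p 0.651), with 363 genes at an unadjusted p under 0.05. DESeq2 called 1 and limma-voom none. Of the 49 genes with a higher male response in controls, 41 had an interaction above 0 in Alport mice, as did 56.7% of all genes in both fits. Of the 56 with a lower male response, 51 were below 0, as were 43.2% of all genes. An unadjusted edgeR p under 0.05 with the same sign was reached by 8 of the 49 and 1 of the 56. With the other sign it was reached by 1 of the 49, *Fgfbp1* (−0.57), and 0 of the 56. Of all genes tested in Alport mice, 2.24% had an unadjusted p under 0.05 in either direction. The globins varied widely in Alport mice: *Hba-a2* was at 15.4, 396, 9.46 and 330 CPM in NR-treated Alport males, and its Alport interaction was −0.85 ± 1.19 (edgeR adjusted p = 1). *Ugt1a2* was at 33.6, 13.1, 27.8 and 26.8 CPM in vehicle-treated and 139, 460, 382 and 121 in NR-treated Alport males, and at 589 to 1250 and 709 to 1120 in Alport females. All NR-treated males were above all vehicle males there too, with an interaction of 3.31 ± 0.59 (edgeR adjusted p = 0.651, the smallest of that fit). *Ugt1a1* and *Slc22a29* had 1.71 ± 0.40 and 1.74 ± 0.57 in Alport mice, within 1 SE of their control values, while *Cyp26b1*, *Cbr1* and *Acot3* had 0.07 ± 0.85, 0.24 ± 0.54 and 0.06 ± 0.37. For *Cyp26b1* the NR response estimates were 2.57 in Alport males and 2.50 in Alport females. The estimate in control females had the other sign, at −1.73.

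The difference between the control and the Alport interaction was tested over all 32 mice. No gene of 16469 passed (0%, smallest adjusted p 0.199 by edgeR), and 777 had an unadjusted p under 0.05, while DESeq2 called 9 and limma-voom 3. The smallest p belonged to *Fgfbp1*, with a difference of 2.13 ± 0.40 (unadjusted p = 1.21e-05). For *Cyp26b1* the difference was 3.89 ± 1.15 (adjusted p = 0.832) and for *Ugt1a2* 1.62 ± 0.81 (adjusted p = 0.994). Controls gave 105 calls and Alport mice none, but no gene was shown by this test to differ between the genotypes in its sex difference.

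**Figure D5:**
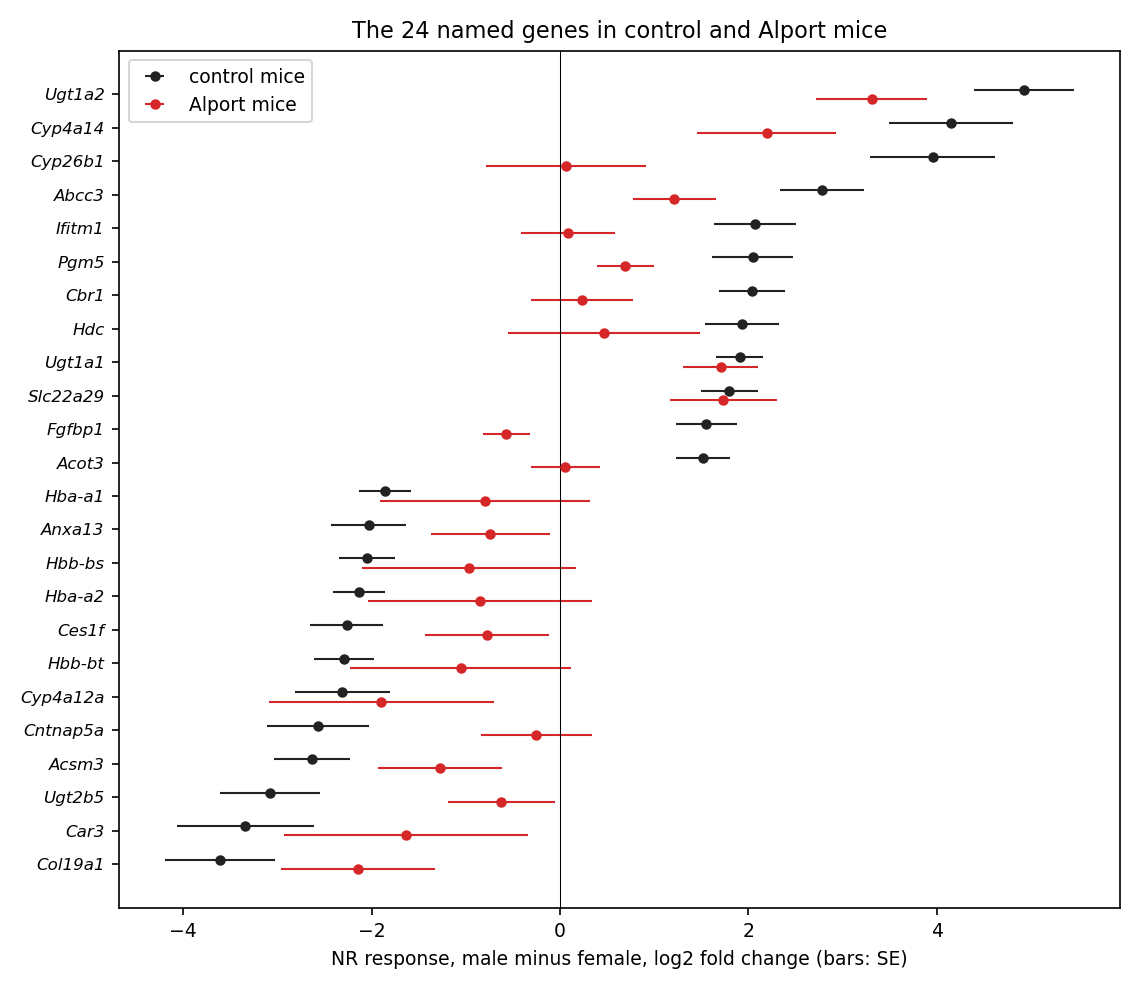
For the 24 named genes (vertical axis), the male minus female NR response is shown on a log2 scale in control (black) and Alport (red) mice, with bars of 1 SE. *Ugt1a1* and *Slc22a29* nearly coincide, *Cyp26b1* is at 3.96 in controls and 0.07 in Alport mice, and the globins have bars about as long as their Alport values.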

How the data were processed

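RNA from isolated kidney cortex of 32 mice was made into poly(A) libraries and sequenced. The authors deposited a table of gene counts for all libraries, made with BioJupies, and a log10 table that the deposited counts reproduce to within 4.44e-16 as log10(CPM + 1). The submitters' processing notes name the build mm10; aligner, annotation and strand setting are not given in the sources used here. Groups came from the labels, and the counts were used as deposited.

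For the 16 control mice, genes with enough counts by edgeR's filterByExpr (minimum 10) were kept (15379 of 32544), scaled by TMM and tested with edgeR 4.0.16 (R 4.3.3) by the quasi-likelihood test, with a model of 4 groups and Benjamini-Hochberg adjustment at 0.05. CPM used TMM library sizes. Counting error is part of the spread for genes at low CPM (*Col19a1*, *Cntnap5a*, *Nmrk2*), with 16 reads or fewer per mouse in some groups. Named genes were the 12 largest interactions in each direction among called genes with a mean of at least 1 CPM, the 3 of smallest p in each list, and *Col4a3* and 4 Y-linked genes. Any other gene named (among them *Alas2* beyond its list place, *Aldh1a1*, *Adh1*, *Amacr*, *Pecr*, *Stra6*, *Nqo1*, *Kap*, and the remaining called members of the sex-biased lists) was chosen after its values were seen. The members and lists were chosen with earlier results of these data known.

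No pairing by replicate number was seen: deviations of same-numbered mice correlated at −0.1247 to 0.1635, over 0.1 in 1 of 24 pairs. Low correlations cannot show that the numbers share no litter or handling. The paper states that treatment groups were balanced across litters. No 2 libraries of a group agreed within sampling noise (lowest chi-square per degree of freedom 7.56). Alternatives were DESeq2 1.42.0, limma-voom 3.58.1 with sample weights, RLE factors, other filters, all 32 mice in 1 fit, the replicate block, a 2-fold limit, and leaving out each mouse. Coordinates are from GENCODE M21 (GRCm38) and promoters from RefSeq (GRCm38.p6).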

Additional observations from a re-analysis of the deposited data

Results flagged for a closer look

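For 31 genes named above the response to NR differed between male and female control mice by the test of the interaction itself, and these differences, male minus female on the log2 scale, are collected here. Among the 12 largest in the positive direction, those of conjugation, transport and lipid enzymes were *Ugt1a2* 4.93, *Cyp4a14* 4.15, *Abcc3* 2.79, *Ugt1a1* 1.91, *Slc22a29* 1.80 and *Acot3* 1.52. The remaining 6 were *Cyp26b1* 3.96, *Ifitm1* 2.07, *Pgm5* 2.05, *Cbr1* 2.04, *Hdc* 1.93 and *Fgfbp1* 1.56. In the negative direction the 4 globins were at −2.30 (*Hbb-bt*), −2.14 (*Hba-a2*), −2.05 (*Hbb-bs*) and −1.86 (*Hba-a1*). The enzymes *Ugt2b5*, *Acsm3*, *Cyp4a12a*, *Ces1f* and *Car3* were at −3.08, −2.63, −2.31, −2.27 and −3.34, and *Col19a1*, *Cntnap5a* and *Anxa13* at −3.61, −2.57 and −2.03. Of the genes named through a list, *Hacl1* was at 1.02, *Kynu* at 1.20, *Acads* at −0.68, *Phyh* at −0.63, *Prdx1* at −0.51, *Pvalb* at −1.24 and *Cndp2* at −1.29.

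In 11 of 96 groups of 4 mice, 1 mouse stood apart from the other 3 by a gap that took up more of the group's range than Dixon's limit allows. Gap and range were taken on log2 CPM. Chance flags about 5% of groups, and the genes share mice. NR-treated male 1 had 10.2 CPM of *Pgm5*, NR-treated male 2 had 79.5 CPM of *Cyp4a12a*, and vehicle male 4 had 8.66 CPM of *Ugt1a1*. Vehicle female 2 had 0.225 CPM of *Col19a1* and 4.54 of *Cyp4a12a*, vehicle female 3 had 99.6 of *Acot3*, and vehicle female 4 had 255 of *Cbr1*. NR-treated female 2 had 16.7 CPM of *Car3* and 99.5 of *Ces1f*, and NR-treated female 4 had 3.3 of *Fgfbp1* and 72.2 of *Hbb-bt*.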

How the results depend on the processing

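The number of genes with a sex difference in NR response (105) and the numbers changed in males (1999) and females (182) depended on the test and on single mice, and the cause was not tested. DESeq2 gave 504 for the sex difference and 633 in females, and limma-voom 425 and 858. All 32 mice in 1 fit gave 7, 947 and 18, and a 2-fold limit 50, 362 and 43. Fits of 1 sex alone, with fewer mice, gave 666 in males and 924 in females. The replicate block gave 61 for the sex difference and 114 in females; the numbers share no known litter or batch. Leaving out each mouse gave 22 to 677, 919 to 3454 and 62 to 315, the highest each time without NR-treated male 4. In Alport mice DESeq2 gave 1 gene in place of 0, and for the difference between genotypes DESeq2 gave 9 and limma-voom 3; leaving out mice gave 0 in both. RLE factors and both other filters kept all counts within 1.5 times. The 24 named genes gave 549 estimates over the alternative fits, counting each gene in each fit. None changed sign, 125 of the estimates lost the call, and 5 genes never lost it. Of the other named genes, *Plin1* and *Pck1*, neither called, changed sign: *Plin1* (−1.12) was at 0.027 with limma-voom and at −1.52 to 0.58 with mice left out, and *Pck1* (0.07) at −0.25 with limma-voom, −0.11 with the replicate block and −0.34 to 0.32 with mice left out.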

Other observations

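Other called genes, chosen after their values were seen, include *Bpgm* and *Cpox*, which act in red cells or in heme synthesis. They were picked from the called genes, so their direction is no separate evidence for the red cell list. Both calls were lost in some fit with a mouse left out. *Bpgm*, which makes the 2,3-bisphosphoglycerate of red cells, was at 46.9, 48.9, 53.4 and 53.7 CPM in male vehicle and 46.9, 43.9, 43.6 and 46.4 in male NR mice. In females it was at 40.5, 41.6, 35.3 and 38 CPM with vehicle and 50.8, 52.4, 53.6 and 47.3 with NR, and its interaction was −0.56 (edgeR adjusted p = 0.0186). *Cpox*, a heme synthesis enzyme that other cells also use, rose in females from 73.9–77.8 to 95.3–114 CPM, with an interaction of −0.67 (edgeR adjusted p = 0.025).

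*Agps*, which makes the ether bond of plasmalogens in peroxisomes, was at 339, 437, 304 and 419 CPM in male vehicle and 120, 215, 98.8 and 199 in male NR mice. It fell in males by 1.25 on the log2 scale, its interaction was −1.62 (edgeR adjusted p = 0.0179), and the call held whichever mouse was left out. *Rarb*, a retinoic acid receptor and a known target of retinoic acid, rose in males by 0.68 (edgeR adjusted p = 0.00801), with an interaction past the threshold (adjusted p = 0.0399). That call was lost in some fit with a mouse left out. In Alport mice the *Rarb* interaction had the other sign, at −0.42 ± 0.23 (edgeR unadjusted p = 0.0892).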
